A study of Mus musculus with 8 samples.

Results

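Polyamines, namely putrescine, spermidine and spermine, are small positively charged molecules that bind RNA and DNA and that growing cells make in large amounts. Their synthesis starts with ornithine decarboxylase, which is held in check by antizyme and released by antizyme inhibitor, continues with 2 aminopropyl transfers that draw on decarboxylated S-adenosylmethionine, and is balanced by acetylation and oxidation. S-adenosylmethionine is also the methyl donor of arginine methyltransferases such as Prmt5. The genes described here are the 10 members of this pathway listed by symbol, Odc1, Oaz1, Oaz2, Azin1, Amd1, Srm, Sms, Sat1, Smox and Paox, out of 39017 genes in the expression table. They were chosen by their known roles, and all 10 were found once by symbol in the table and passed the filter of a mean normalized count of at least 10.

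The cells were iGBs, B cells that take on germinal center features when resting splenic B cells are cultured on 40LB feeder cells, which are fibroblasts that express CD40L and BAFF. Libraries of rRNA-depleted RNA were made at day 4 with 1 ng/mL IL-4 from 4 Prmt5-null cultures (PRMT5 FF Cgamma1-cre, libraries PRMT5-10617, PRMT5-10618, PRMT5-10770 and PRMT5-10771) and 4 control cultures (Cgamma1-cre, libraries CTRL-10650 and CTRL-10370 as well as CTRL-10596 and CTRL-10597), and values per library are given in this order throughout. All mice were of the C57BL6/J strain and all carried the Cre driven from the Cγ1 locus, which becomes active after B cell activation, so that Prmt5 is deleted only after activation in the Prmt5-null group. Mice of either sex, 2 to 4 months old, were used, and the age and sex behind each library are not given in the sources used here. The libraries held from 42752293 to 47174851 reads on genes in the Prmt5-null group and from 36731721 to 50366174 in the control group. Prmt5 itself had 1060 to 1994 normalized counts in the Prmt5-null and 11084 to 13087 in the control libraries, a log2 fold change of -2.98 (SE 0.17, adjusted p = 6.14e-06 from limma).

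A normalized count is a read count that the authors divided by the size factor of its library, so it measures a level relative to all genes, and in these bulk samples fewer cells of a type and less RNA per cell cannot be told apart. The summed level of 6 B cell markers spanned 148893 to 177101 normalized counts in Prmt5-null and 147135 to 170421 in control libraries, whereas that of 5 T cell markers was at most 19.0 in any library, with 1 of the 5 at 0 in every library. The sum of 10 fibroblast markers, genes that the 40LB feeder cells could contribute, was 5656 to 9985 in Prmt5-null and 3477 to 6179 in control libraries, with 4 of the 8 tested markers higher (adjusted p below 0.05 from limma) and none of the 10 at 0 in every library. Of 5 plasma cell markers 2 were lower, of 4 markers of activated or germinal center B cells 2 were higher, of 3 tested myeloid markers 1 was higher and of the 6 B cell markers 1 was lower. Among all genes tested the same rule called 6.51% as higher and 7.33% as lower. The summed level of the plasma cell markers was 37685 to 45352 normalized counts in Prmt5-null and 41182 to 58366 in control libraries, that of the activated or germinal center markers 27484 to 28388 and 20920 to 25981, and that of the myeloid markers 171 to 298 and 104 to 215. The part of these cell types in the results below was not tested.

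Of the 10 polyamine genes, 1 passed an adjusted p below 0.05 in the limma comparison of the genotypes, namely Amd1, which was lower in Prmt5-null iGBs. Among all 16250 genes tested the same rule called 13.8%, and 7.33% as lower. None of the 10 passed this p together with a change of at least 1.5-fold, a rule that called 6.48% of all genes. edgeR's quasi-likelihood test and DESeq2's Wald test on the recovered reads likewise called only Amd1 of the 10, and none with a 1.5-fold change, where edgeR called 14.0% and DESeq2 18.9% of all genes at an adjusted p below 0.05. At an unadjusted p below 0.05 each of the 3 tools had 3 of the 10 genes, which in limma were Odc1, Amd1 and Srm. In limma 29.3% of all genes tested passed this unadjusted threshold, so 3 of 10 is near the background. The log2 fold change, Prmt5-null minus control, was negative for 8 and positive for 2 of the 10, with a median of -0.12 beside 0.00 for all genes tested, and it ranged from -0.42 for Odc1 to 0.26 for Smox. In none of the 10 genes did all 4 Prmt5-null libraries lie below all 4 control libraries, which was the case for 10.2% of all genes tested.

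**Figure D1:**
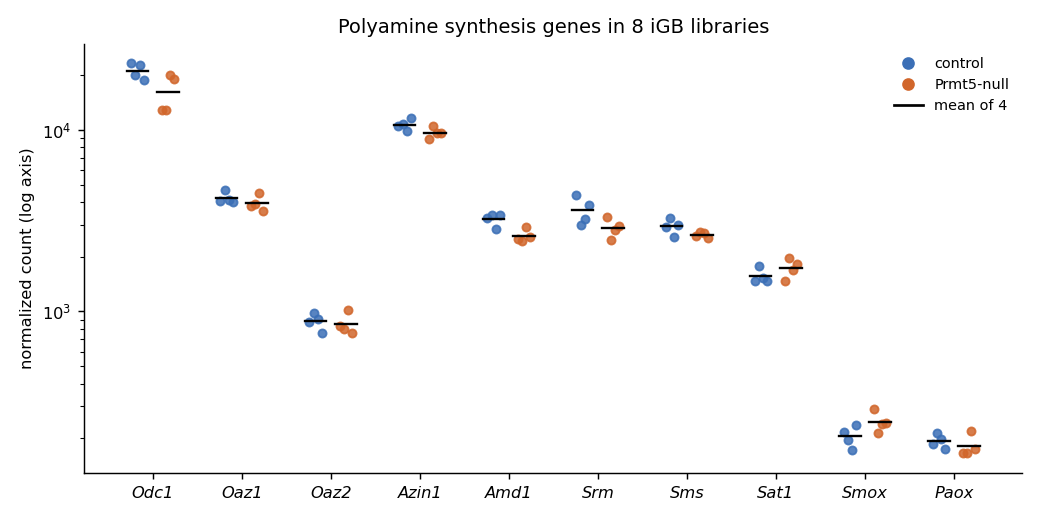
Normalized count (log axis) of each of the 10 genes in the 4 control and 4 Prmt5-null libraries, with each point 1 library and each bar the mean of 4. The groups overlap for every gene, and Odc1 spans 12842 to 20170 in the Prmt5-null libraries.

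Odc1 encodes ornithine decarboxylase, which makes putrescine and is the regulated entry to the pathway. It lies on chromosome 12 from 17544794 to 17551505 of GRCm38, and it had the largest normalized count of the 10. The Prmt5-null libraries had 12854 (PRMT5-10617), 12842 (PRMT5-10618), 20170 (PRMT5-10770) and 19001 (PRMT5-10771) normalized counts, and the control libraries had 23228, 20038, 22722 and 18912. The Prmt5-null libraries PRMT5-10617 and PRMT5-10618 lay below every control library, and PRMT5-10770 and PRMT5-10771 lay within the control range. The log2 fold change was -0.42 (SE 0.15, 95% interval -0.74 to -0.09), which did not pass the threshold after adjustment (adjusted p = 0.0865 from limma, exact two-sided permutation p = 0.143 for 4 against 4 libraries, where the smallest possible is 0.0286). Without Prmt5-null library PRMT5-10770 the log2 fold change of Odc1 was -0.53 and its adjusted p from limma 0.0204, the only 1 of 8 fits without a library that called it. At the other end, without PRMT5-10617, the log2 fold change was -0.31 with an adjusted p of 0.213 from limma.

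Antizymes bind ornithine decarboxylase and deliver it to the proteasome. Their translation depends on a shift of the ribosome to another reading frame, which polyamines promote, at a stop codon that ends the first reading frame. The sequence around this site is shown for Oaz1, for its processed pseudogene Oaz1-ps and for Oaz2 (66 bases each, from GENCODE transcripts of GRCm38), because Oaz1 and Oaz1-ps carry the same letters here in different parts of the genome. Over their 685 aligned bases they differ at 5 positions, and a read that covers none of these fits both. Capitals mark the last codon before the stop and the stop codon TGA. Oaz1 is shown at chr10:80828262-80828327 (plus strand), Oaz1-ps at chr17:17345904-17345969 (minus strand) and Oaz2 at chr9:65686239-65686304 (plus strand).
Oaz1: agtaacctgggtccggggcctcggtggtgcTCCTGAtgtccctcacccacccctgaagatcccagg
Oaz1-ps: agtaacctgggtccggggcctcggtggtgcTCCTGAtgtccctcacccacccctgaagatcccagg
Oaz2: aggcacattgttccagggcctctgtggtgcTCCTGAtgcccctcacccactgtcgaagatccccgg

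Oaz1, on chromosome 10 from 80826656 to 80829290, had 3789, 3897, 4499 and 3563 normalized counts in the Prmt5-null libraries. In the control libraries it had 4043, 4658, 4085 and 4016. All Prmt5-null libraries but PRMT5-10770 were below all control libraries and PRMT5-10770 was within their range, with a log2 fold change of -0.10 (SE 0.09, 95% interval -0.29 to 0.09, adjusted p = 0.501 from limma). Oaz1-ps, which matched the Oaz1 mRNA at 99.3% over 685 bases, was listed with more reads than Oaz1 in every library. It had 11312, 10091, 14659 and 10850 normalized counts in the Prmt5-null libraries and 12286, 13988, 12647 and 11213 in the control libraries. Of the sum of both, Oaz1 held 23.5% to 27.9% per library. Whether the reads listed under Oaz1-ps came from Oaz1 mRNA cannot be told from these counts, which leave out reads without a unique position. With the pseudogene's reads added, the log2 fold change was -0.10 (95% interval -0.33 to 0.13, adjusted p = 0.559 from limma), and the groups overlapped again.

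Oaz2, the second antizyme, on chromosome 9 from 65668001 to 65690300, had 830, 802, 1014 and 758 normalized counts in the Prmt5-null and 874, 977, 913 and 760 in the control libraries. The Prmt5-null library PRMT5-10770 was above every control library and the others were not, and the log2 fold change was -0.05 (95% interval -0.30 to 0.20, adjusted p = 0.801 from limma). Without Prmt5-null library PRMT5-10771 its sign turned, at 0.00057 on the log2 scale.

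Azin1 encodes antizyme inhibitor, a protein related to ornithine decarboxylase that binds antizyme and frees the enzyme. It lies on chromosome 15 from 38487427 to 38519266. Its normalized counts were 8867, 10526, 9660 and 9559 in the Prmt5-null and 10448, 10709, 9916 and 11672 in the control libraries. All Prmt5-null libraries but PRMT5-10618 were below all control libraries, and PRMT5-10618 was above 2 of them. Azin1 had a log2 fold change of -0.15 (SE 0.08, 95% interval -0.32 to 0.03, adjusted p = 0.241 from limma, exact permutation p = 0.0857).

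Amd1 encodes S-adenosylmethionine decarboxylase, which makes the aminopropyl donor that both spermidine synthase and spermine synthase use. It lies on chromosome 10 from 40287458 to 40302186. The Prmt5-null libraries had 2508, 2431, 2926 and 2570 normalized counts and the control libraries 3271, 3411, 2855 and 3409. Only 1 value from each group crossed into the other, that of PRMT5-10770, which was above CTRL-10596. The mean was 2609 ± 219 in Prmt5-null and 3237 ± 263 in control iGBs (SD, n = 4 each). The level of Amd1 fell by 19.4%, a value converted back from its log2 fold change. Its log2 fold change was -0.31 (SE 0.09, 95% interval -0.50 to -0.12, adjusted p = 0.0342 from limma, exact permutation p = 0.0571). edgeR gave an adjusted p of 0.0344 and DESeq2 one of 0.0111, whereas limma without a trend gave 0.0757. With 1 library left out at a time, the log2 fold change of Amd1 lay between -0.37 and -0.28 and its adjusted p from limma between 0.0108 (without PRMT5-10770) and 0.0911 (without CTRL-10597), below 0.05 in 2 of 8 fits.

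Amd1 shares its sequence with other loci, of which 4 were in the table with at least 95% identity over at least 500 bases. Amd2, annotated as a protein-coding gene, matched the Amd1 mRNA at 99.6% over 3202 bases with 14 differences. A stretch of the coding sequence that holds 1 of them is shown for both genes (61 bases, GRCm38), with the differing base in capitals. A read that covers such a position can tell these genes apart. Differing bases in the aligned stretch are not needed for a copy to be listed with reads. The Sms copy Gm14680, identical to the Sms mRNA over 1101 bases, had 5406 to 7362 normalized counts per library. What placed the reads at each locus was not tested. Amd1 is shown at chr10:40290156-40290216 and Amd2 at chr10:35710734-35710794, both on the minus strand.
Amd1: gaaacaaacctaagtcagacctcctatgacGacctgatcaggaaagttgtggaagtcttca
Amd2: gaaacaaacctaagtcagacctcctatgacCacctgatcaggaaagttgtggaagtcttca

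Amd2 had 985, 998, 1258 and 1064 normalized counts in the Prmt5-null libraries and 1330, 1355, 1339 and 1638 in the control libraries. All 4 Prmt5-null libraries lay below all control libraries, with a log2 fold change of -0.40 (SE 0.10, adjusted p = 0.0268 from limma). Without a trend limma gave an adjusted p of 0.0589 for Amd2. With 1 library left out at a time it was 0.00697 to 0.0785 from limma, below 0.05 in 4 of 8 fits. At this likeness the values of Amd1 and Amd2 are not independent of each other. The pseudogene Amd-ps3 had 776 to 1082 normalized counts in the Prmt5-null and 1071 to 1188 in the control libraries (log2 fold change -0.35, adjusted p = 0.0497 from limma). Amd-ps1 and Amd-ps4 had under 75 normalized counts in every library. Amd-ps1 had 33.3 to 52.3 in the Prmt5-null and 53.5 to 71.1 in the control libraries, without overlap (log2 fold change -0.53, adjusted p = 0.131 from limma). The reads of Amd1 and these 4 loci together gave 4397, 4268, 5362 and 4567 normalized counts in the Prmt5-null libraries. In the control libraries they gave 5823, 6061, 5380 and 6282. On this sum, a choice made after the values of the copies were seen, every Prmt5-null library was below every control library, though PRMT5-10770 and CTRL-10596 differed by less than 20 normalized counts. The log2 fold change of the sum was -0.34 (SE 0.09, 95% interval -0.53 to -0.15, adjusted p = 0.0218 from limma, exact permutation p = 0.0286, the smallest possible). Amd1 held 53.1% to 57.0% of it. The sum was called by edgeR (adjusted p = 0.0212) and DESeq2 (0.00509), not by limma without a trend (0.0595), and in 4 of the 8 fits that left out 1 library, with adjusted p from 0.00341 (without PRMT5-10770) to 0.0661 (without CTRL-10597).

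**Figure D2:**
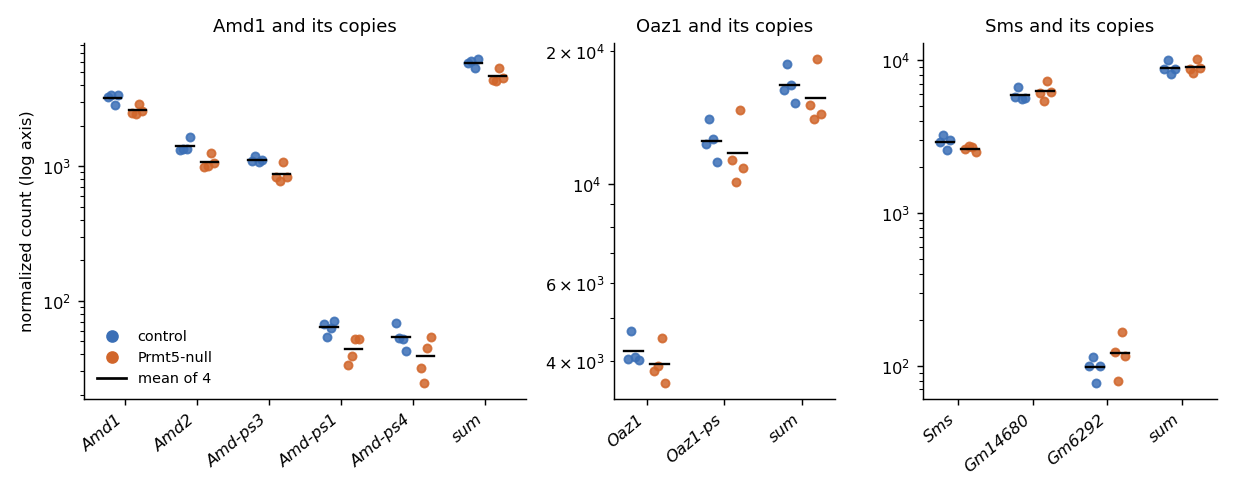
Normalized count (log axis) per library for Amd1, Oaz1 and Sms, for their near-identical copies and for the sum, with each point 1 library and each bar the mean of 4. The Prmt5-null libraries lie below the control libraries for Amd2, for Amd-ps1 and for the Amd1 sum. Oaz1-ps and the Sms copy Gm14680 hold more reads than the genes they match.

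Srm encodes spermidine synthase, which adds the first aminopropyl group to putrescine. It lies on chromosome 4 from 148591503 to 148594993. Its normalized counts were 3297, 2487, 2812 and 2954 in the Prmt5-null and 4397, 2996, 3245 and 3844 in the control libraries. All Prmt5-null libraries but PRMT5-10617 were below all control libraries, and PRMT5-10617 was above 2 of them. The log2 fold change of -0.32 (SE 0.12, 95% interval -0.59 to -0.05) was close in size to that of Amd1, but the control libraries spread more, and it did not pass the threshold (adjusted p = 0.111 from limma, exact permutation p = 0.114).

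Sms encodes spermine synthase, which adds the second aminopropyl group. It lies on chromosome X from 157443855 to 157492287, and had 2609, 2734, 2694 and 2523 normalized counts in the Prmt5-null and 2929, 3260, 2569 and 2987 in the control libraries. The Prmt5-null values averaged 2640 ± 93.7 and the control values 2936 ± 284 (SD, n = 4 each). All Prmt5-null values were below all control values but that of CTRL-10596, and PRMT5-10771 was below that as well. Sms as listed had a log2 fold change of -0.15 (95% interval -0.33 to 0.03, adjusted p = 0.258 from limma). Its direction turned when reads of near-identical loci were added. A processed pseudogene listed as Gm14680, identical to the Sms mRNA over 1101 bases, had 6108, 5406, 7362 and 6214 normalized counts in the Prmt5-null libraries. In the control libraries it had 5713, 6643, 5549 and 5702, so that it held more reads than Sms in every library. Together with this locus and Gm6292, Sms had a log2 fold change of 0.02 (95% interval -0.18 to 0.21, adjusted p = 0.936 from limma). Whether reads listed under these loci came from Sms mRNA cannot be told from the counts. The sum still lacks reads without a unique position. With copies summed in this way for the genes that have them in the table, the log2 fold change was negative for 7 and positive for 3 of the 10 genes, its median was -0.12, and 1 gene, Amd1, was called.

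Sat1, Smox and Paox act on the finished polyamines. Sat1 encodes the acetyltransferase that marks spermidine and spermine for export or breakdown, and lies on chromosome X from 155213132 to 155216449. Its normalized counts were 1463, 1966, 1680 and 1826 in the Prmt5-null and 1462, 1781, 1529 and 1472 in the control libraries. Of the Prmt5-null libraries, PRMT5-10618 and PRMT5-10771 were above all control libraries and the others were not, with a log2 fold change of 0.15 (SE 0.10, 95% interval -0.08 to 0.38, adjusted p = 0.381 from limma). Smox encodes spermine oxidase, which turns spermine into spermidine, and lies on chromosome 2 from 131491496 to 131525922. It had 290, 212, 240 and 242 normalized counts in the Prmt5-null and 215, 195, 173 and 237 in the control libraries. The Prmt5-null libraries other than PRMT5-10618 were above all control libraries, and the log2 fold change was 0.26 (SE 0.15, 95% interval -0.06 to 0.58, adjusted p = 0.258 from limma).

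Paox encodes the oxidase that breaks down acetylated polyamines in the peroxisome, and lies on chromosome 7 from 140115799 to 140137224, where Echs1 overlaps it on the other strand. It had 165, 166, 219 and 174 normalized counts in the Prmt5-null and 186, 215, 198 and 174 in the control libraries. The Prmt5-null libraries other than PRMT5-10770 were below the control range and PRMT5-10770 was above it, with a log2 fold change of -0.10 (95% interval -0.41 to 0.21, adjusted p = 0.685 from limma). A processed pseudogene listed as Gm10307 matched the Paox mRNA at 99.9% over 1358 bases and had more reads than Paox in every library, and the sum of both had a log2 fold change of -0.18 (95% interval -0.49 to 0.12, adjusted p = 0.420 from limma). The counts cannot tell here either whether the reads of Gm10307 came from Paox mRNA. Odc1 also has copies in the table at this likeness, Gm17709 and Gm9115, but held 87.5% to 89.4% of the sum in each library, and the sum had a log2 fold change of -0.41 (adjusted p = 0.0889 from limma).

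**Figure D3:**
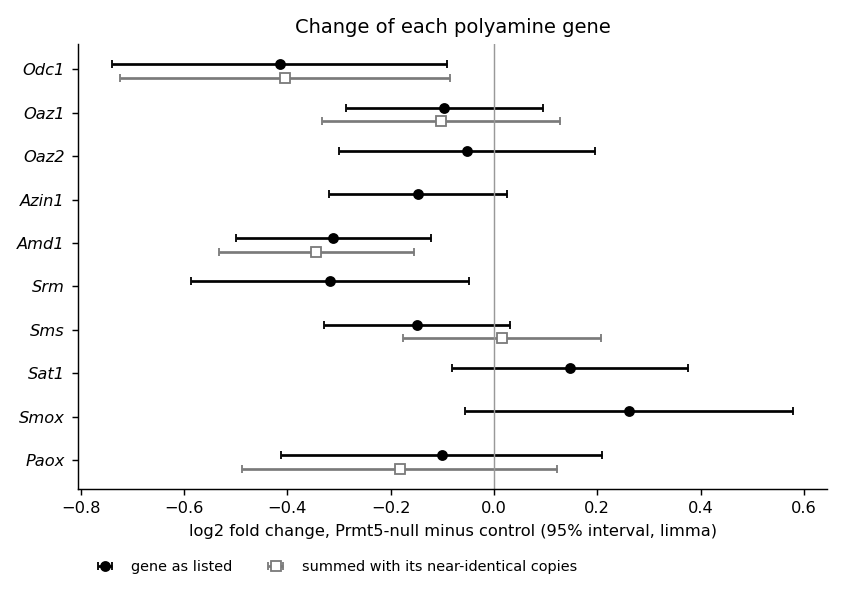
Log2 fold change of each gene, Prmt5-null minus control, with its 95% interval from limma, for the gene as listed (filled) and for the 5 genes with near-identical copies in the table summed with them (open). The interval of the sum for Sms is centered on 0.02, while that of Amd1 lies below 0 either way.

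To compare levels between genes, normalized counts were divided by the exonic length of each gene. In the control libraries Odc1 stood at 6234 ± 612 normalized counts per kb of exon (SD, n = 4), followed by Srm at 2264 ± 393, Azin1 at 1708 ± 118, Oaz1 at 1642 ± 120, Amd1 at 914 ± 74.1, Sat1 at 563 ± 54.0, Sms at 489 ± 47.3, Oaz2 at 295 ± 30.6, Smox at 52.7 ± 7.04 and Paox at 39.4 ± 3.53. The 4 control values of neighbours in this order did not overlap, except for Azin1 with Oaz1 and Sat1 with Sms. The enzymes of synthesis were thus all listed above the oxidases. With copies summed, Oaz1 took the second place at 6542 ± 557 normalized counts per kb, and its control values overlapped those of Odc1 (6997 ± 689). Sms then moved above Sat1 to 1487 ± 128, and Paox above Smox to 120 ± 16.6.

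Within a library, the ratio of Odc1 to Oaz1 was 3.39, 3.30, 4.48 and 5.33 in the Prmt5-null and 5.74, 4.30, 5.56 and 4.71 in the control libraries. As for Odc1 alone, PRMT5-10617 and PRMT5-10618 were below the control range. The ratio of Sat1 to Odc1, breakdown against entry, was 0.114, 0.153, 0.0833 and 0.0961 in the Prmt5-null and 0.0629, 0.0889, 0.0673 and 0.0778 in the control libraries. Only PRMT5-10770 fell into the control range, and the mean log2 ratio differed by 0.56. The mean log2 ratio differed by -0.32 for Odc1 to Oaz1, -0.05 for Azin1 to Oaz1, -0.04 for Oaz1 to Oaz2, -0.17 for Srm to Sms and -0.16 for Amd1 to Sms, Prmt5-null minus control. The groups overlapped for all 6 ratios, which are descriptions without a test. They count each gene without the copies summed above, which concerns Odc1, Oaz1, Amd1 and Sms.

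The genes around the pathway were taken from 5 lists, and their counts stand beside the 13.8% of all genes that limma called, 6.51% as higher and 7.33% as lower. Of the relatives of the 10 genes and the enzymes that feed the pathway, 2 of 9 were expressed highly enough to be tested. These were Amd2, described above, and Azin2, a second antizyme inhibitor listed under the older symbol Adc. Azin2 had 825, 719, 742 and 495 normalized counts in the Prmt5-null and 815, 837, 889 and 784 in the control libraries, which overlapped (log2 fold change -0.28, adjusted p = 0.208 from limma). The arginases Arg1 and Arg2, which make ornithine, had at most 14.3 normalized counts in any library and were not tested. Spermidine also provides the side chain of hypusine, a modified lysine of eIF5A, and of the 4 genes of this step, Dhps, Dohh, Eif5a and Eif5a2, none was called. Their log2 fold changes ranged from -0.25 for Eif5a2 to 0.16 for Dohh.

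Methylthioadenosine is the by-product of both aminopropyl transfers, is known to inhibit Prmt5, and is returned to methionine by a salvage pathway. Of its 5 genes, 1 was called higher and 1 lower. Enoph1, a late enzyme of the salvage, had 1607, 1538, 1765 and 1556 normalized counts in the Prmt5-null and 1248, 1229, 1123 and 1223 in the control libraries. All Prmt5-null libraries were above all control libraries, and the gene rose by 0.42 on the log2 scale (SE 0.08, adjusted p = 0.00500 from limma). Mri1, the isomerase that follows Mtap, had 1019, 947, 1088 and 916 normalized counts in the Prmt5-null and 1292, 1364, 1241 and 1198 in the control libraries. The groups did not overlap here either, with a log2 fold change of -0.36 (adjusted p = 0.0171 from limma, from 0.00888 to 0.0646 with 1 library left out). Mtap itself, which cleaves methylthioadenosine, had a log2 fold change of -0.33 without passing the threshold in limma (adjusted p = 0.0622, or 0.123 without a trend). Adi1 had one of -0.39 (adjusted p = 0.0516 from limma, or 0.0825 without a trend). DESeq2 gave adjusted p of 0.0347 for Mtap and 0.0230 for Adi1. Apip went the other way, at 0.22, and was not called (adjusted p = 0.163 from limma).

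Of 5 transport genes 3 were tested, and Slc3a2, the heavy chain shared by several amino acid transporters that has also been linked to polyamine export, was called lower. It had 2511, 2367, 2506 and 2639 normalized counts in the Prmt5-null and 3754, 3387, 3132 and 3335 in the control libraries, with no overlap (log2 fold change -0.44, SE 0.08, adjusted p = 0.00334 from limma). Atp13a2, a lysosomal polyamine exporter, and Atp13a3 had log2 fold changes of -0.23 and -0.31 with adjusted p of 0.225 and 0.0525 from limma. Atp13a3 passed in edgeR (adjusted p = 0.0491) and DESeq2 (0.0253), but not in limma without a trend (0.111). Of 7 transcription factors known to act on polyamine genes 6 were tested, with 1 called higher and 1 lower. Myc, which activates Odc1, had 3065, 2416, 1970 and 2272 normalized counts in the Prmt5-null and 2772, 2386, 2607 and 3202 in the control libraries, with overlap (log2 fold change -0.18, adjusted p = 0.380 from limma). Atf4, a factor of the amino acid response, was lower at 10741 ± 616 against 14949 ± 1480 normalized counts (SD, n = 4 each, log2 fold change -0.47, adjusted p = 0.00368 from limma). Trp53, which encodes p53 and is an inducer of Sat1, was higher at 3886 ± 350 against 2966 ± 283 (SD, n = 4 each, log2 fold change 0.39, adjusted p = 0.0143 from limma).

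**Figure D4:**
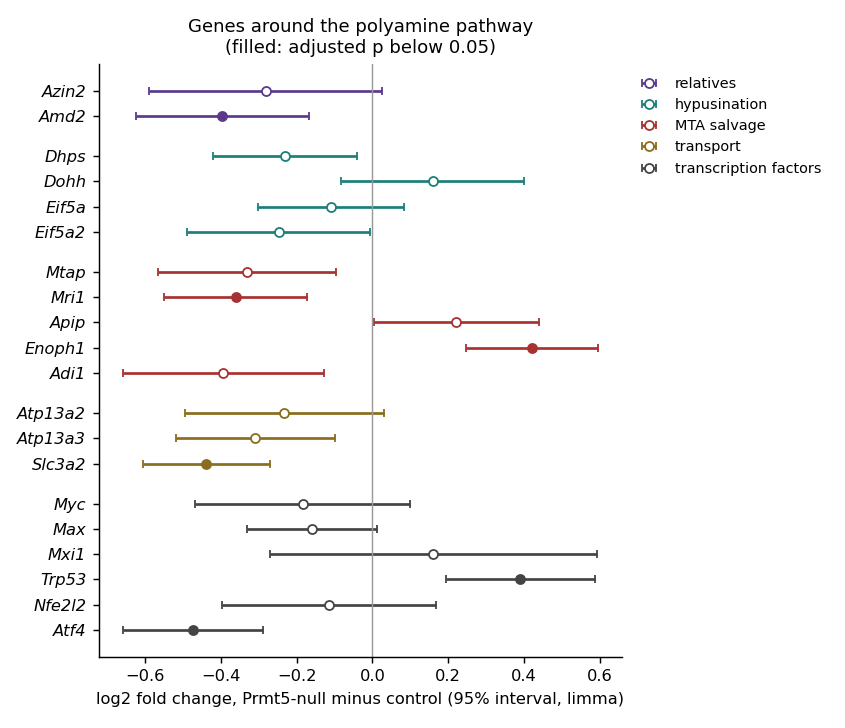
Log2 fold change, Prmt5-null minus control, with its 95% interval from limma, for the tested genes of the 5 lists, with filled points for an adjusted p below 0.05. Enoph1 and Trp53 lie above 0, and Amd2, Mri1, Slc3a2 and Atf4 lie below it.

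The E-box CACGTG, the motif that Myc and Max bind and which reads the same on both strands, was looked for in RefSeq promoter windows of GRCm38.p6 from 250 bases before to 50 after a start. Of the 32851 windows in the table, 7.15% held it. Windows were matched for 8 of the 10 genes (10 windows), all but Srm and Azin1. Of these windows 1 held it, a window of Sms whose motif has its first base at position -196 from the start. Sites outside the windows, such as those in introns, were not searched.

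Splicing was read from the events that the authors' rMATS analysis selected for a difference between genotypes, so the values below describe selected events and were not tested again. Of the 10 genes 1 had a deposited event, Smox with 2, while 11.4% of all genes with a mean above 50 normalized counts had one. For a skipped exon or a retained intron, the inclusion level estimates from reads the share of transcripts that hold it. The 4 values per genotype carry no library names. The files number the 2 lists without naming the genotype, and the first was taken as control from the order in which the study's figure legend gives the difference, so every splicing direction below rests on that reading. The first event was a pair of mutually exclusive exons. Its inclusion level sets reads of the first exon against those of the second and is not a share of all transcripts. The levels were 0.605, 0.446, 0.573 and 0.561 in control and 0.375, 0.402, 0.285 and 0.402 in Prmt5-null iGBs. All Prmt5-null values were below all control values, at means of 0.546 and 0.366, on 261 reads in all and 18 in the thinnest library. With junction reads alone the ranges were 0.279 to 0.603 in control and 0.223 to 0.370 in Prmt5-null iGBs, which overlap. The exons are shown because they are the sequence that the event trades, from chr2:131520412-131520646 and chr2:131521055-131521171 (plus strand, GRCm38). The annotation joins both in 1 exon of 760 bases in 5 of 17 Smox transcripts and has both, apart, in 1. With exactly these ends, the first is an exon of 1 of the 17 transcripts and the second of 2. Whether the remaining transcripts use one exon in place of the other was not looked at.
Smox first exon: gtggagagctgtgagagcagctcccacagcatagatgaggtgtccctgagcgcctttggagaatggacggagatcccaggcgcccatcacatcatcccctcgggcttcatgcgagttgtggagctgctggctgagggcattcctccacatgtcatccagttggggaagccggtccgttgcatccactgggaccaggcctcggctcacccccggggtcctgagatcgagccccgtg
Smox second exon: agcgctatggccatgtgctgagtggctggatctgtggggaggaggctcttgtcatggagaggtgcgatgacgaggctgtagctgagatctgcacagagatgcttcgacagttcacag

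The second Smox event was a skipped exon of 90 bases, a multiple of 3, at chr2:131524244-131524333 (plus strand, GRCm38), which 2 of 17 transcripts hold and which is coding in 1 of them. It is shown as the sequence that the mRNA gains or lacks.
Smox skipped exon: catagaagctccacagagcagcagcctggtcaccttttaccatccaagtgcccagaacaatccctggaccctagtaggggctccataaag
Its inclusion level was 0.136, 0.037, 0.08 and 0.244 in control and 0, 0.08, 0 and 0 in Prmt5-null iGBs. Most transcripts lacked the exon in both genotypes, and the values overlap. They rest on 12 inclusion reads in control and 3 in Prmt5-null iGBs, against 55 and 65 skipping reads, which is too few to fix a level.

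**Figure D5:**
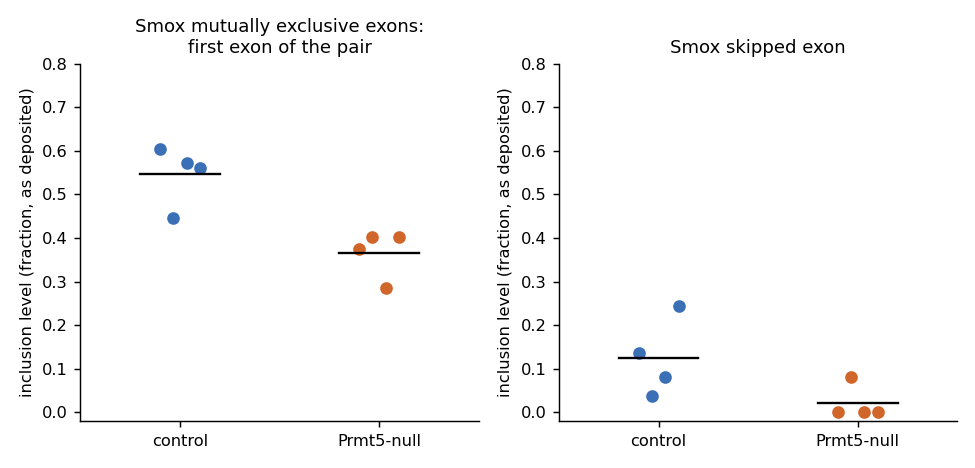
Inclusion level (fraction) of the 2 Smox events as deposited, with each point 1 library of unknown number and each bar the mean of 4. Control values of the first exon of the pair lie at 0.446 or above and Prmt5-null values at 0.402 or below, while the skipped exon is at 0 in 3 Prmt5-null values.

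Among the genes around the pathway, 5 of the 20 with a mean above 50 normalized counts had a deposited event, beside 11.4% of all such genes. These events too were selected for a difference, so groups that do not overlap are no result about these genes. The share of all deposited events without overlap is not given here. In Atp13a2 an intron was retained at 0.058 to 0.095 in control and 0.299 to 0.480 in Prmt5-null iGBs, without overlap. In Azin2 a skipped exon of 174 bases was included at 0.368 to 0.670 in control and 0.769 to 0.937 in Prmt5-null iGBs, again without overlap. Its levels rest on only 37 skipping reads in control and 11 in Prmt5-null iGBs, with 22 reads in the thinnest library. Skipped exons in Max (0.208 to 0.281 against 0.063 to 0.108) and Dhps (0.868 to 0.947 against 0.743 to 0.812) were included less in Prmt5-null iGBs in every value. The levels of Dhps rest on 17 skipping reads in control and 44 in Prmt5-null iGBs. A skipped exon in Eif5a overlapped between the genotypes.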

How the data were processed

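RNA-seq libraries of 4 Prmt5-null and 4 control iGB cultures, 1 mouse each, were analysed. The authors trimmed reads with Trimmomatic 0.32, aligned them to mm10 (GRCm38) with STAR 2.3.0e and used featureCounts 1.4.4 to count reads with a unique position over the exons of each Ensembl gene. The strand setting of the counting is not given in the sources used here. They deposited a normalized signal, counts divided by DESeq2 1.14.1 size factors. All values (100% within 0.01) were whole multiples of 1 read's worth, which gave the depths. The authors also deposited rMATS inclusion levels as fractions with read counts and their own p-values and differences, and the last 2 were not used.

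Genotypes were compared with limma 3.58.1 (lmFit, eBayes with a trend, R 4.3.3) on log2(normalized count + 1) over 16250 genes with a mean of at least 10, with Benjamini-Hochberg adjustment over these genes. This scale slightly understates changes of low genes. The recovered reads were also tested with edgeR 4.0.16 and, separately, DESeq2 1.42.0. Permutation tests were two-sided over all 70 assignments of 4 and 4. The 2 experiments of the study could not be tied to libraries and were no term of the model. Copies were genes whose GENCODE vM21 transcripts matched the longest coding transcript of a gene by BLAST, and those at 95% identity or more over 500 bases or more were summed with it, a rule chosen after the data were seen. Levels per kb used the exon union. All 10 genes, the called genes of the 5 lists, Myc and Azin2 are named with values. Mtap, Apip, Adi1, Atp13a2, Atp13a3, Arg1, Arg2, the hypusine genes, the copies and the splicing events of list genes were added after their values were seen. Protein sequences were not analysed here. The genes and lists were chosen with earlier results of these data known.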

Additional observations from a re-analysis of the deposited data

Results flagged for a closer look

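For Oaz1 and Paox, 1 library stood far from the other 3 of its group, by the gap to its nearest neighbour over the group's range (Dixon's ratio, past its 95% critical value). Chance gives such a value in about 1 in 20 groups, and 20 groups, 10 genes in 2 genotypes, were looked at. Oaz1 in control library CTRL-10370 had 4658 normalized counts where the next highest control library had 4085 (ratio 0.892). Paox in Prmt5-null library PRMT5-10770 had 219 normalized counts where the next highest Prmt5-null library had 174 (ratio 0.833). Over the 10 near-identical copies of Odc1, Oaz1, Amd1, Sms and Paox, CTRL-10370 was the highest control library for 5 and PRMT5-10770 the highest Prmt5-null library for 7. Copies of the same gene are not independent of each other. No such count is given for all genes, so these counts do not set the libraries apart. The part of these libraries in the values above was not tested.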

How the results depend on the processing

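The count of 1 polyamine gene called was 0 under limma without a trend and at an adjusted p below 0.01, 0 to 2 over the fits without 1 library, and 0 to 2 over the 18 possible placements of the 2 experiments as a block. The count with a 1.5-fold change was 0 in every fit run. Amd1 had an adjusted p from 0.0186 to 0.0590 over the placements, below 0.05 in 13, Odc1 one from 0.0123 to 0.123, below 0.05 in 3, and Srm one from 0.0328 to 0.153, below 0.05 in 2. At an adjusted p below 0.01, 971 of all genes were called, 637 with a 1.5-fold change. Without 1 library, from 1374 (without PRMT5-10771) to 2371 of all genes were called, and from 795 to 1173 with a 1.5-fold change. Of the 2 Smox events, 0 had a difference of at least 0.25 and 0 had at least 20 reads in each library, so both rest on low depth. Of 210 values of the 10 genes under these alternatives, 198 stayed on the same side of the threshold, 9 lost the call (all Amd1) and 3 gained one, and no called value changed sign. Of 30 places in the order of levels under other lengths or with copies summed, 14 moved. The cause of these shifts was not tested. No paired analysis was possible because the genotypes share no replicate number.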
